A study of Mus musculus with 4 samples.

Results

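Adrenergic, G protein and cAMP signalling genes were followed through the m6A site lists of hearts from Abro1 knockout mice and wild-type mice, both on a C57BL/6 strain background. Members were all genes whose symbol begins with a stem of one of these families: Adra, Adrb, Gna, Gnb, Rgs, Grk, Adrbk, Adcy, Pde, Prkac, Prkar or Akap. The stems gave 55 of the 6660 genes with a site in either list. These 55 genes carried 98 of 10388 knockout sites and 107 of 10814 wild-type sites. The measurement was methylated RNA immunoprecipitation sequencing, in which fragments bound by an antibody against N6-methyladenosine are sequenced beside an input library. There was 1 immunoprecipitate and 1 input library per genotype, and 1 site list was deposited for each genotype. The sources used here do not give how many animals went into a library, their sex and age, or how the Abro1 allele was made. The only difference between the groups given by the labels is the Abro1 genotype. With 1 list per genotype there is no replicate check, so no p-value is given and every difference below is one between those lists.

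In heart muscle, noradrenaline and adrenaline act on adrenergic receptors in the cell membrane. Beta receptors couple to the stimulatory G protein and to adenylyl cyclase, which makes cAMP, whereas alpha-1 receptors couple to the Gq class. cAMP releases the catalytic subunits of protein kinase A (PKA) from their regulatory subunits, A-kinase anchoring proteins (AKAPs) hold PKA at its targets, and phosphodiesterases break cAMP down. RGS proteins speed up the shut-off of G proteins and GRK kinases desensitise the receptors. m6A is laid on mRNA in the nucleus, most often near stop codons and in long internal exons, within a short motif around the bases GGAC.

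The lists hold a deposited fold enrichment per site, the ratio of immunoprecipitate over input, and a deposited score, which is the peak caller's p on a scale of minus 10 times its log10. Both belong to the site within its own list, so values set side by side below are no measure of how methylation differed. Scores pile up at 3100: 8.76% of knockout and 8.78% of wild-type sites had that score or more. Equal scores of 3100 therefore neither rank sites nor show that the lists gave the same value. The lists hold no RNA level and no read count, so the depth is unknown, and whether RNA abundance moved with any difference was not tested. In bulk tissue, fewer cells of a type and less RNA per cell cannot be told apart. Of 12 cardiomyocyte markers, 5 had a site, among them Tnnt2, Actn2, Ttn and Ryr2 in both lists. Of the other markers, 5 of 8 fibroblast, 4 of 8 endothelial, 4 of 8 smooth muscle and pericyte, 2 of 8 macrophage, 1 of 6 adipocyte, 2 of 8 neuronal and Schwann cell and 2 of 6 erythroid genes had one. Myh6, Pln and Nppa had none. A site list does not report expression, so this does not bear on the presence of those cells.

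Most members, like most genes, were listed in both genotypes. Both lists named 46 of the 55 genes (83.6%, exact 95% interval 71.2 to 92.2), against 74.4% of all 6660 genes. The knockout list alone named 5 (9.09%, interval 3.02 to 20), against 11.6% of all genes. The wild-type list alone named 4 (7.27%, interval 2.02 to 17.6), against 14.0% of all genes. Each of the 3 intervals holds the share of all genes, so these counts were near the background. All the intervals cover counting error only. The 5 were Akap10, Adrbk2, Rgs10, Pde5a and Gnb1l, and the 4 were Gna13, Grk5, Grk6 and Pde1a. Most of these listings rested on weak sites: with scores of at least 100 only, Akap10, Gna13 and Grk5 stayed in a single list and the other 6 genes had no site. The counts then turned to 3 members in the knockout list alone and 5 in the wild-type list alone. The RefSeq table used here holds 119 protein-coding genes of these families, of which the 55 had a site in at least 1 list. The share with a site ran from 5 of 6 PKA subunits and 12 of 16 AKAPs down to 3 of 10 adenylyl cyclases and 1 of 5 G beta subunits. The share of all protein-coding genes with a site was not taken. Neither these counts nor the 55 of 119 are therefore to be read as a trait of the families.

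**Figure D1:**
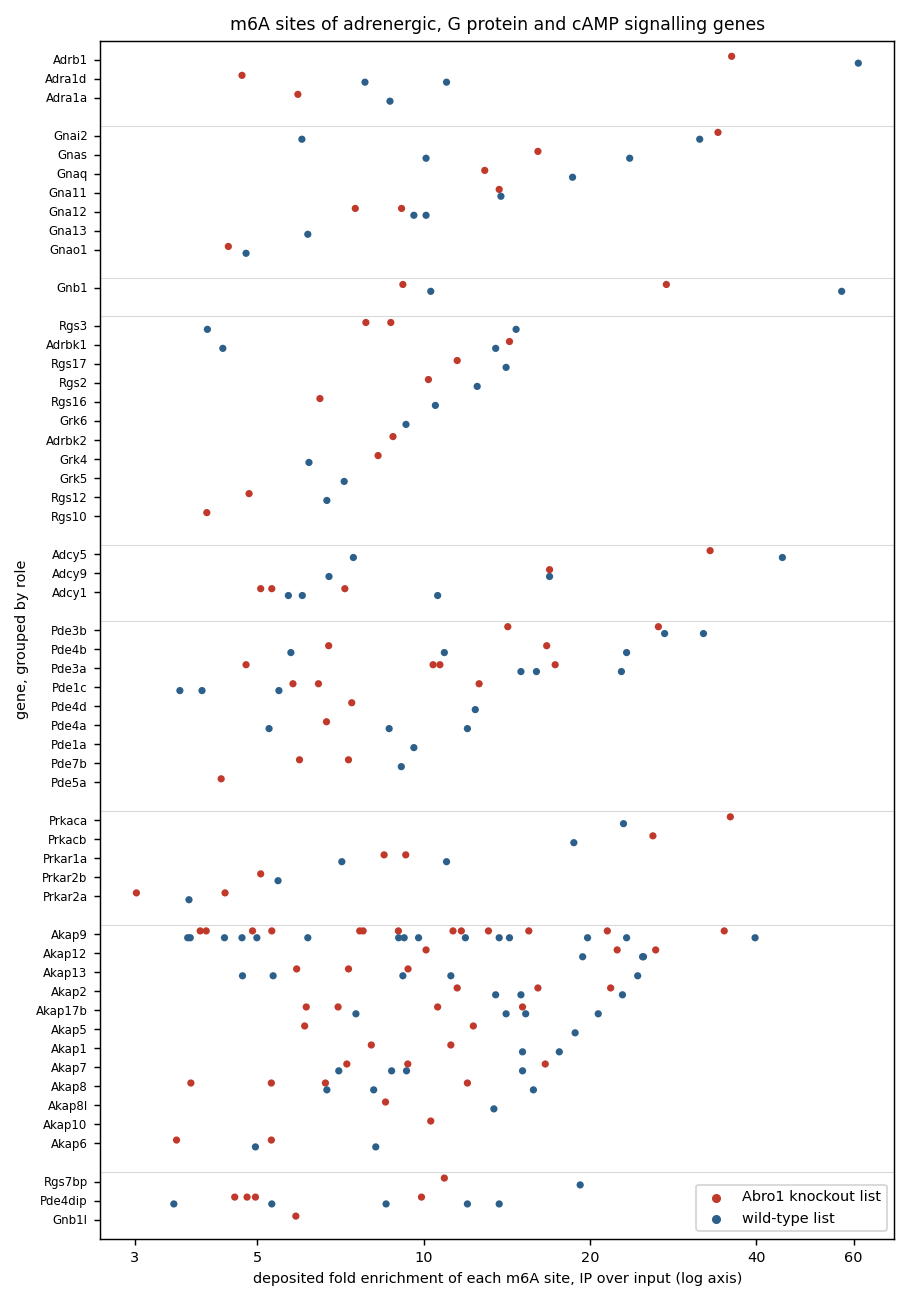
Deposited fold enrichment (log axis) of the members' m6A sites, one row per gene (1 member is not shown), grouped by role, with knockout sites in red and wild-type sites in blue. Adrb1 had the largest member fold in each list, 36.1 in the knockout list and 61.2 in the wild-type list, and 9 genes have points of 1 colour only.

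The sites of several members began exactly at, or covered, an annotated start of the gene, which was no more frequent than over all sites. Shares are of sites whose gene has a RefSeq start available. Exactly at a start began 9.64% of knockout and 8.79% of wild-type member sites, against 12.7% and 12.1% of all such sites. A start was covered by 16.9% of knockout and 16.5% of wild-type member sites, against 19.1% and 18.2% of all. The first 30 transcribed bases (30 is the length chosen for printing) of 5 such genes are given to show what lay at these mRNA starts, 5′ to 3′ from RefSeq for GRCm38.p6, with GGAC in capitals. Prkaca, Gnb1, Gna12 and Akap1 had such a site in both lists with identical ends, and Akap10 was in the knockout list only.
Prkaca: GGACagaGGACttgggctgaggctcccccg
Gnb1: gcaggggccgccgcgcccatcctgatggct
Gna12: tcggggcggcggcggcGGACgcagcctgag
Akap1: gcgtcgcgccgcgggcacgtcgttgcgcgt
Akap10: ctcccgtgaagccccgcgcgcGGACGGACc
They lie on chromosome 8 at 83972978 to 83973007 (plus strand), chromosome 4 at 155491361 to 155491390 (plus), chromosome 5 at 140830402 to 140830431 (minus), and chromosome 11 at 88864557 to 88864586 (minus) and 61930228 to 61930257 (minus). GGAC was searched on the transcribed strand and stood 2 times in Prkaca and Akap10, once in Gna12 and not in these bases of Gnb1 and Akap1. Of the starts covered by a knockout member site, 3 of 15 held GGAC in the first 30 bases, and of those covered by a wild-type member site 2 of 16. The starts that held it are all among the sequences shown. The reverse complement GTCC was as frequent, in 3 of 15 and 2 of 16 of these starts. Over all 32851 starts of the promoter table the share with GGAC was 11.2%, with 10.2% for GTCC. A match is a description of the letters in this window and not a mapped methylated base. The antibody is also known to bind m6Am, a related base next to the mRNA cap, and these data do not tell the marks apart.

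Among the receptors, Adrb1, the main beta receptor of heart muscle, carried the strongest site. Its site ran over 2491 bp on chromosome 19 from 56722372 to 56724862, with identical ends in both lists, and took up most of the gene span (56722117 to 56725150). The fold was 36.1 in the knockout list and 61.2 in the wild-type list, with a score of 3100 in each. Only 3.0% of knockout sites and 1.41% of wild-type sites had a fold at least as large, counting the site itself. Adra1a, an alpha-1 receptor of cardiac muscle, had folds of 5.92 and 8.69 in the knockout and wild-type lists. The alpha-1 receptor Adra1d shared a site at the 3′ end of its gene (chromosome 2, 131545357 to 131546540), where fold and score were 4.69 and 74.1 in the knockout list and 11 and 458 in the wild-type list. A second Adra1d site near the 5′ end (131561076 to 131562285, fold 7.83, score 135) stood in the wild-type list without a knockout counterpart. All 3 of these genes were in both lists, and the alpha-2 receptors and Adra1b had no site in either.

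Gnai2, Gnaq and Gna11 carried their shared sites near the start of the gene. For Gnai2, an inhibitor of adenylyl cyclase, the shared site ran on chromosome 9 from 107635100 to 107635342, with folds of 34.1 in the knockout list and 31.6 in the wild-type list, both at a score of 3100. Another Gnai2 site was in the wild-type list alone, farther down the gene (107619697 to 107619857, fold 6.02, score 247). Gnaq and Gna11, which activate phospholipase C, had 1 site each per list in the first 20% of the span. The Gnaq folds were 12.9 in the knockout list and 18.6 in the wild-type list. For Gna11 they were 13.7 in the knockout list and 13.8 in the wild-type list. Gna12, of the G12 class, had the start site shown above with folds of 9.12 and 9.60 in the knockout and wild-type lists, and a site at the 3′ end with folds of 7.52 and 10.1.

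Gnas, the stimulatory G alpha subunit, lies in a locus with several promoters, and its sites were arranged differently in the lists. The knockout list held 1 site, on chromosome 2 from 174329511 to 174330434 (fold 16.1, score 2195). The wild-type list held a weak site from 174328108 to 174329539 (fold 10.1, score 96.7) and a strong one from 174329764 to 174330434 (fold 23.6, score 3100). The single knockout site overlapped both of them, but the weak one only at its end (174329511 to 174329539). At the minimum overlap of 1 bp, that weak site still counts as having a counterpart. Gnao1, best known from neurons, had a weak site in each list (scores 51.3 in the knockout list and 52.8 in the wild-type list). Gna13, the relative of Gna12, was in the wild-type list only (chromosome 11, 109395914 to 109396979, fold 6.17, score 167). Gnb1 was the only G beta gene with a site. Its start site (chromosome 4, 155491361 to 155491580) had a fold of 27.5 in the knockout list and 57.1 in the wild-type list, and a second site had 9.17 and 10.3. Folds at least as large as that start site's were held by 5.42% of knockout sites and 1.70% of wild-type sites.

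Both lists shared 7 of the 11 RGS and GRK genes with a site (63.6%, interval 30.8 to 89.1), and each list alone held 2 more. The interval holds the 74.4% of all genes. Adrbk2, which RefSeq now calls Grk3, was in the knockout list only, with a site at the 5′ end of the gene (chromosome 5, 113015367 to 113015538, fold 8.80, score 97.2). Grk5, a kinase of beta receptors that is abundant in heart, was in the wild-type list only (chromosome 19, 60889804 to 60890631, fold 7.18, score 138). So was Grk6 (chromosome 13, 55445331 to 55445560, fold 9.29, score 58.4). All 3 sites lay at or near the start of their genes, and all 3 were weak. Adrbk1, now Grk2 and the main receptor kinase of the heart, was in both lists with a start site of folds 14.3 and 13.5 in the knockout and wild-type lists. A second, weak Adrbk1 site (chromosome 19, 4294850 to 4294926, fold 4.33, score 105) stood in the wild-type list alone. Grk4 had overlapping sites of folds 8.27 in the knockout list and 6.20 in the wild-type list.

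Of the RGS genes, Rgs2, which acts on Gq, had a site of folds 10.2 in the knockout list and 12.5 in the wild-type list, with scores of 1155 and 1496. Rgs3 had a shared site (chromosome 4, 62689499 to 62690626) with folds of 8.72 in the knockout list and 14.7 in the wild-type list. Each list held one further weak Rgs3 site at a different place, with scores of 88.7 in the knockout list and 55.5 in the wild-type list. Rgs12 had folds of 4.83 and 6.68 in the knockout and wild-type lists, Rgs16 6.49 and 10.5, and Rgs17 11.5 and 14.1. Rgs10 was in the knockout list only, with a weak site (chromosome 7, 128373689 to 128374042, fold 4.05, score 56.8). Rgs5, a pericyte gene, and Rgs4 had no site in either list.

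Among the adenylyl cyclases, Adcy5, Adcy9 and Adcy1 had sites, and Adcy6, the other main cardiac cyclase, had none. Adcy5 had a 2359 bp site at the 5′ end (chromosome 16, 35154877 to 35157235) with folds of 33.0 in the knockout list and 44.6 in the wild-type list, both at a score of 3100. Adcy9 had a 1736 bp site (chromosome 16, 4417853 to 4419588) whose fold was 16.9 and score 3100 in each list. In both genes the wild-type list held a further site in the last 20% of the span with no knockout counterpart. In Adcy5 it lay from 35303613 to 35304630 (fold 7.46, score 1407) and in Adcy9 from 4285025 to 4289089 (fold 6.74, score 198). Adcy1, best known as the calcium-stimulated cyclase of neurons, had 3 overlapping pairs of sites in the last 20% of the span. Their folds ran from 5.07 to 7.20 in the knockout list and from 5.69 to 10.6 in the wild-type list.

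The phosphodiesterase sites lay mainly in the last 20% of their gene spans. The spans include introns, so a site there need not lie at the end of the transcript. In the knockout list 13 of 16 sites (81.2%, interval 54.4 to 96.0) were in the last 20% of the span, against 34.8% of all knockout sites. In the wild-type list this was 13 of 17 (76.5%, interval 50.1 to 93.2), against 35.7% of all sites. Both intervals lie above the share of all sites, but sites of one gene are not independent and no test was made. This role stood out among several roles and parts of the span that were looked at. Of its sites, 13 of 16 knockout and 12 of 17 wild-type ones overlapped a site of the other list. The lists are thus not separate readings here. Pde3a, the main cardiac enzyme of the PDE3 class, had a site toward the 3′ end (chromosome 6, 141498652 to 141499351). There the fold was 17.3 and the score 3100 in the knockout list and 22.8 and 1016 in the wild-type list. A neighbouring shared site (141492132 to 141492390) had a fold of 10.4 and score of 371 in the knockout list and 16 and 1125 in the wild-type list. The Pde3a site at the 5′ end had folds of 10.7 in the knockout list and 15.0 in the wild-type list, and a weak site (score 83.0) was in the knockout list alone. Pde3b, the PDE3 enzyme of adipose tissue and heart, had neighbouring 3′ sites with folds of 14.2 and 26.6 in the knockout list and 32.1 and 27.3 in the wild-type list.

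The PDE4 enzymes are specific for cAMP. Pde4b had its strongest site at the very 3′ end (chromosome 4, 102604974 to 102607029 in the knockout list), with a fold of 16.7 in the knockout list and 23.3 in the wild-type list. A second shared Pde4b site had folds of 6.73 and 5.75 in the knockout and wild-type lists. A weak Pde4b site (fold 10.9, score 94.6) was in the wild-type list only. Pde4d had folds of 7.41 and 12.4 in the knockout and wild-type lists. Pde4a had 1 site in the knockout list, at its start (fold 6.67, score 59.8), and 3 in the wild-type list, at the start (12.0) and at 2 places toward the 3′ end (5.25 and 8.66). Pde1c, stimulated by calcium and calmodulin, had 3 sites per list, of which 2 overlapped. Those 2 sites had scores of 599 and 348 in the knockout list and 71.2 and 59.6 in the wild-type list. Their folds were 5.80 and 12.6 in the knockout list and 3.62 and 3.97 in the wild-type list. Pde7b had 2 knockout sites inside a single wild-type site. Pde5a, which breaks down cGMP, was in the knockout list only (chromosome 3, 122729158 to 122729365, fold 4.30, score 57.5). Pde1a was in the wild-type list only (chromosome 2, 79835927 to 79836924, fold 9.60, score 82.1). Pde2a had no site in either.

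The 5 PKA subunit genes that had a site had one in each list. Both catalytic subunits carried their single site at the start of the gene. Prkaca, the main catalytic subunit of the heart, had a fold of 35.9 in the knockout list and 23.0 in the wild-type list (chromosome 8, 83972978 to 83973232), with a score of 3100 in each. Prkacb had 26 in the knockout list and 18.7 in the wild-type list (chromosome 3, 146812638 to 146812960). Over the 58 member sites with identical ends, folds had a median of 9.64 in the knockout list (quartiles 6.26 and 15.9) and of 13.5 in the wild-type list (8.60 and 18.7). Over all 5904 such sites the medians were 8.76 and 10.3. Sites were called for each genotype separately, so the medians are properties of the lists.

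The regulatory subunits had lower folds than the catalytic ones. Prkar1a, the type I subunit, had 2 overlapping pairs with folds of 9.28 and 8.48 in the knockout list and 11 and 7.11 in the wild-type list. Prkar2b had a site covering its start with folds of 5.07 and 5.45 in the knockout and wild-type lists. Prkar2a, the type II subunit abundant in heart, had a shared site (chromosome 9, 108740435 to 108740536) of folds 4.37 in the knockout list and 3.76 in the wild-type list. A second, weak Prkar2a site was in the knockout list alone (108745482 to 108745623, fold 3.02, score 88.6).

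The AKAPs held 41 of the 98 knockout member sites and 43 of the 107 wild-type ones. Of 12 AKAP genes, 11 were in both lists. Akap9, which encodes the Yotiao scaffold of the slow potassium channel and a large Golgi and centrosome protein, had 13 sites in the knockout list and 15 in the wild-type list, 12 of which overlapped. As many sites or more were found in 17 genes of the knockout list and 8 of the wild-type list, Akap9 included. The strongest Akap9 site by fold was the same in both (chromosome 5, 4045898 to 4046941), at 35 in the knockout list and 39.8 in the wild-type list. Folds of the other Akap9 sites ran from 3.94 to 21.5 in the knockout list and from 3.74 to 23.3 in the wild-type list. The sites that overlapped no site of the other list were weak, with scores of 203 (1 knockout site) and 60.9, 97.7 and 122 (3 wild-type sites).

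**Figure D2:**
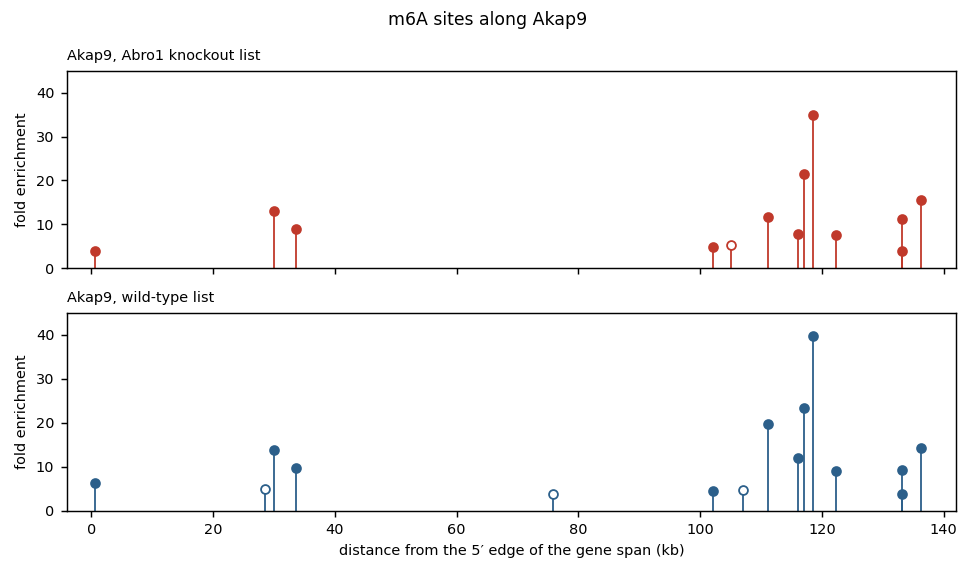
Deposited fold enrichment of each Akap9 site against the distance of its midpoint from the 5′ edge of the gene span (kb), knockout list above and wild-type list below. Filled points overlap a site of the other list (12 in each) and open points do not (1 knockout and 3 wild-type), and the tallest point stands at the same place in both, at folds of 35 in the knockout list and 39.8 in the wild-type list.

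The other AKAPs with strong sites bind PKA at different places in the cell. Akap12 (gravin, at the plasma membrane) had 3 sites per list with identical ends, including a 4798 bp site (chromosome 10, 4353142 to 4357939) that was the longest member site, with folds of 22.4 in the knockout list and 25 in the wild-type list. Akap2 had 3 overlapping pairs with folds of 11.5, 16.1 and 21.8 in the knockout list and 15.0, 13.5 and 22.9 in the wild-type list. RefSeq joins Akap2 and Palm2 in the gene Pakap. Akap1, the AKAP of the outer mitochondrial membrane, had an internal site of folds 11.2 in the knockout list and 15.1 in the wild-type list, and its start site had 8.04 and 17.6. Akap5, of the plasma membrane, had a 3889 bp knockout site (fold 12.3) that overlapped a 3114 bp wild-type site (18.8). A weak Akap5 site near the 5′ end (chromosome 12, 76324905 to 76325126, fold 6.09, score 91.0) was in the knockout list alone.

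Akap6, which places PKA at the nuclear envelope of heart cells, had 2 long sites with folds of 5.30 and 3.57 in the knockout list and 8.19 and 4.96 in the wild-type list. Akap7, a small AKAP linked to phospholamban and the calcium channel, had 3 overlapping pairs with folds of 7.26, 9.36 and 16.6 in the knockout list and 8.75, 9.31 and 15.1 in the wild-type list. A further Akap7 site at the 3′ end (fold 7.02, score 140) was in the wild-type list alone. The nuclear AKAPs Akap8 and Akap8l had their strongest sites at folds of 12.0 and 8.53 in the knockout list and 15.8 and 13.4 in the wild-type list. A weak Akap8 site (fold 3.79, score 81.6) was in the knockout list alone. Akap17b had 4 overlapping pairs, of which 1 had a fold of 6.13 in the knockout list and 20.7 in the wild-type list. Akap10 was in the knockout list only, with the start site shown above (61929989 to 61930257, fold 10.3, score 153).

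Akap13, a large AKAP expressed in heart, had the strongest site without a counterpart. The knockout list held 3 Akap13 sites and the wild-type list 5, and all 3 knockout sites had the same ends as wild-type ones. The 2 further wild-type sites lay in the last 20% of the span on chromosome 7, from 75747578 to 75748027 (fold 5.34, score 311) and from 75749180 to 75749510 (fold 24.4, score 2766). Among wild-type sites with a score of at least 1000, 2 of 31 member sites (this one and the 3′ site of Adcy5) had no overlapping knockout site, against 2.80% of all such wild-type sites. Among knockout sites of that score it was 0 of 28 member sites, against 2.20% of all. With counts this small, a departure from the background could not be told.

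**Figure D3:**
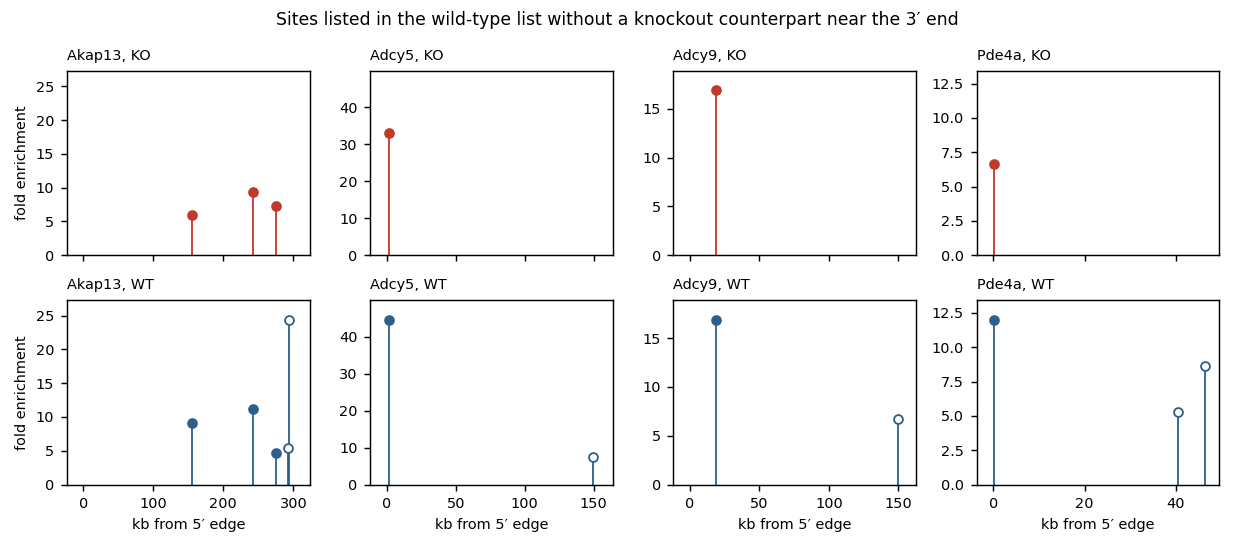
Deposited fold enrichment of the sites of Akap13, Adcy5, Adcy9 and Pde4a against the distance from the 5′ edge of the gene (kb) to the site midpoint, knockout list (KO) above and wild-type list (WT) below. Open points, which overlap no site of the other list, appear in the wild-type row only for these 4 genes, which were chosen after their values were seen.

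The remaining matches are no core members of the pathway. Pde4dip (myomegalin, a centrosome and Golgi protein that binds a phosphodiesterase) had 4 knockout and 5 wild-type sites, 3 of which overlapped. Rgs7bp, a membrane anchor of RGS proteins, had overlapping sites of folds 10.9 in the knockout list and 19.2 in the wild-type list. Gnb1l, a relative of the G beta genes, had a weak site under its own symbol in the knockout list only (chromosome 16, 18564035 to 18564531, fold 5.87, score 50.4). A wild-type site of the symbol Gm16314 (18500940 to 18501658, fold 6.25, score 61.4) carries the RefSeq gene Gnb1l too, so by RefSeq gene Gnb1l was in both lists.

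Seen by site, 85 of the 98 knockout sites (86.7%, interval 78.4 to 92.7) overlapped a wild-type site by at least 1 bp on the same strand. For the wild-type list it was 85 of 107 sites (79.4%, interval 70.5 to 86.6). The other sites numbered 13 in the knockout list and 22 in the wild-type list, where the background of sites without a counterpart was 19.6% and 22.8% of all knockout and wild-type sites. In each list the interval of the overlap share reached the share of all sites (80.4% of knockout and 77.2% of wild-type sites). Every member in both lists had at least 1 overlapping pair, and no member site overlapped a site of another symbol. Member sites without a counterpart had a median score of 88.6 in the knockout list and 124 in the wild-type list, near the 89.2 and 94.0 of all such knockout and wild-type sites. Those of Akap13 (2766) and Adcy5 (1407) in the wild-type list stood far above that median. Member sites with a counterpart had medians of 451 in the knockout list and 504 in the wild-type list, against 385 and 400 over all such sites. Of the 46 genes in both lists, 5 had more knockout sites (10.9%, against 13.5% of all genes in both lists), 12 had more wild-type sites (26.1%, against 16.9%) and 29 had equal numbers. No interval was taken for these shares, so a departure from all genes could not be told.

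**Figure D4:**
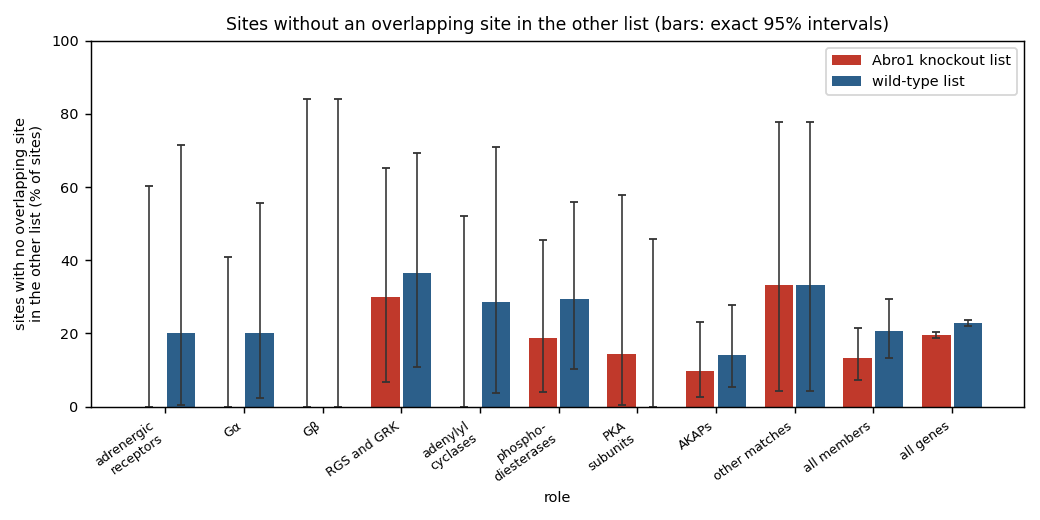
Share of sites with no overlapping site in the other list, by role, for the knockout list (red) and the wild-type list (blue), with exact 95% binomial intervals that cover counting error only. Every interval of a single role is wide, and the bars of all members (13 of 98 knockout and 22 of 107 wild-type sites) stand beside those of all genes.

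By position, 28 of 97 knockout member sites (28.9%, interval 20.1 to 39.0) and 28 of 106 wild-type ones (26.4%, 18.3 to 35.9) had their midpoint in the first 20% of the gene span. In the last 20% lay 39 knockout sites (40.2%, 30.4 to 50.7) and 44 wild-type sites (41.5%, 32.0 to 51.5). Of all knockout and wild-type sites, 26.1% and 25.5% lay in the first and 34.8% and 35.7% in the last 20%, so the members' intervals hold these shares. In the second 20% lay 4 sites in each list, or 4.12% of knockout and 3.77% of wild-type sites (intervals 1.13 to 10.2 and 1.04 to 9.38), against 10% of all knockout and 10.3% of all wild-type sites. The knockout interval holds the share of all sites, and the wild-type interval lies below it. All of these sites had a counterpart in the other list, so the lists are not separate readings, and no test was made. Of the 13 knockout member sites without a counterpart, 5 lay in the last 20% (38.5%, interval 13.9 to 68.4), against 33.4% of all such knockout sites. Of the 22 wild-type ones it was 11 (50%, interval 28.2 to 71.8), against 37.6% of all. The spans include introns, and whether a site is exonic, coding or untranslated was not determined.

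**Figure D5:**
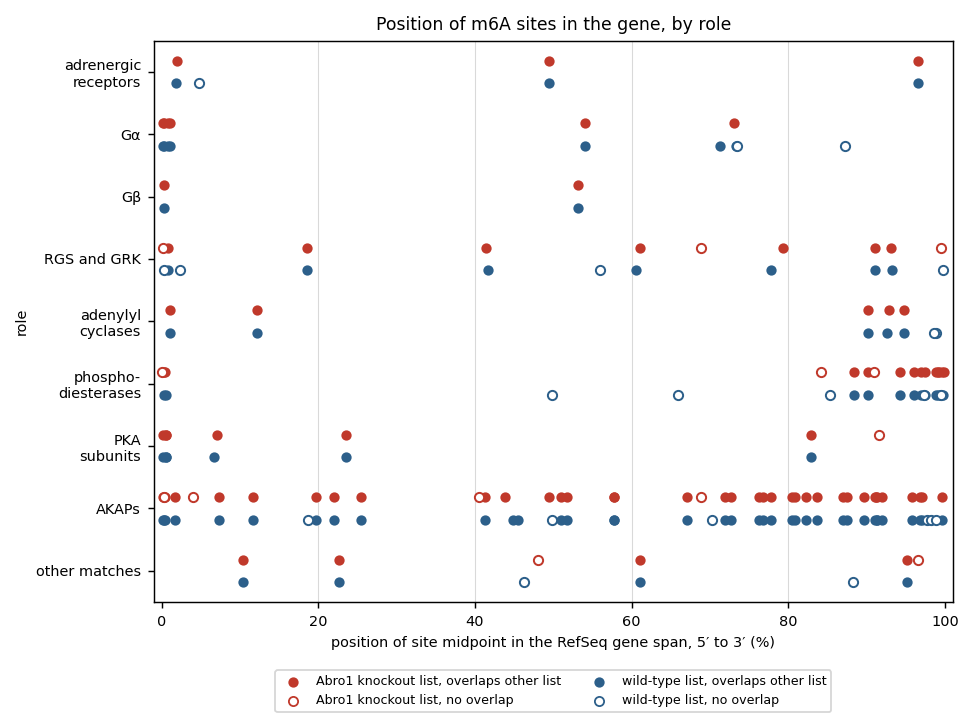
Midpoint of the member sites (1 member is not shown) as a percentage of the RefSeq gene span from 5′ to 3′, by role, with knockout sites (red) above wild-type sites (blue); open points overlap no site of the other list. Phosphodiesterase sites gather in the last 20% (13 of 16 knockout and 13 of 17 wild-type sites). In the first 20% lie 4 of 7 knockout and 4 of 6 wild-type PKA subunit sites (intervals 18.4 to 90.1 and 22.3 to 95.7). These intervals hold the 26.1% and 25.5% of all knockout and wild-type sites. Of the G alpha sites, 4 of 6 knockout and 4 of 9 wild-type ones lie there too.

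The medians of member sites lay above those of the whole lists. Their median fold was 8.76 (quartiles 5.90 and 12.8) in the knockout list and 10.5 (6.68 and 15.9) in the wild-type list, against 7.96 and 9.35 over all sites. A score of 3100 or more was held by 14 of 98 knockout sites (14.3%, against 8.76% of all) and 15 of 107 wild-type sites (14.0%, against 8.78%). Of these strong sites, 7 in each list belonged to AKAP genes. No interval was taken for these shares and sites of one gene are not independent, so a departure from all sites could not be told. The deposited false discovery rate was 100% for all 98 knockout member sites and for 84 of the 107 wild-type ones, with a lowest value of 83.3%. By this rate no member site, including those called strong here by score, is a secure call. The rate over all sites was not summarised, so these counts are not to be read as a trait of the members.

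Other genes of the pathway were read from 5 lists. Their counts in a single list are to be read against the 11.6% (knockout list) and 14.0% (wild-type list) of all genes with a site. For the counts of genes with a site no background was taken. Over the 5 lists, 4 genes were in the knockout list alone and 8 in the wild-type list alone, which turned to 10 and 4 with scores of at least 100 only. Of 28 receptors and G protein regulators, 13 had a site, 11 were in both lists and each list alone held 1 more. The beta-arrestins, which bind receptors marked by GRKs, stood in different lists, Arrb1 in the knockout list (fold 4.27, score 52.0) and Arrb2 in the wild-type list (7.32 and 53.7), each with a weak site. By their highest score in either list, the leading genes in both were Calcrl, the calcitonin receptor-like receptor, Gng11, a G gamma subunit, the adenosine receptor Adora1 and the thrombin receptor F2r. Adora1 had folds of 11.2 in the knockout list and 11.6 in the wild-type list. The muscarinic receptor Chrm2 had no site.

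Of 29 genes for cAMP effectors and transcription, 23 had a site, 19 were in both lists, 0 in the knockout list alone and 4 in the wild-type list alone. Those 4 were Rapgef3, the cAMP-activated Rap exchange factor EPAC1 (fold 12.9, score 273), the PKA inhibitor Pkia (5.92 and 129), the kinase Sik1 (4.63 and 98.0) and the transcription factor Creb3 (7.74 and 84.4). The scores of Sik1 and Creb3 were below 100. In both lists stood Popdc2, a cAMP-binding membrane protein, the coactivators Crebbp and Ep300, and the kinase Sik3. The Popdc2 folds were 12.1 in the knockout list and 14.3 in the wild-type list.

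Of 21 cardiac PKA targets and phosphatase regulators, 11 had a site, 9 were in both lists and 2 in the knockout list only, namely Kcne1, the beta subunit of the slow potassium channel (fold 7.62, score 225), and Ppp1r3a, a glycogen-targeting subunit of protein phosphatase 1 (3.52 and 528). The calcium release channel Ryr2 had 5 knockout and 3 wild-type sites, and the calcium channel subunit Cacnb2 had 1 knockout and 2 wild-type sites. The phosphatase catalytic subunit Ppp2ca and the phosphatase inhibitor Ppp1r2 were in both lists too. Phospholamban (Pln), Tnni3 and Mybpc3, classical PKA targets, had no site. Of 15 natriuretic peptide and cGMP genes, 7 had a site, 5 of them in both lists. Npr1, the receptor for atrial natriuretic peptide, was found in wild-type hearts alone (fold 13.1, score 233) and the kinase Prkg1 in the knockout list only (8.27 and 103). Npr3, the clearance receptor, was in both with folds of 13.8 in the knockout list and 23.1 in the wild-type list. Of 16 anchoring proteins without Akap in their symbol, 12 had a site, 10 of them in both lists. Cmya5 had the highest score (3103 in the knockout list and 3100 in the wild-type list). Ezr, Msn, Rdx, Acbd3 and Synm followed at scores of 3100. Arfgef2 (fold 13.7, score 106) and Ldb3 (6.82 and 79.7) were found in wild-type hearts alone.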

How the data were processed

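The submitters' processing notes name HISAT2 2.0.4, cutadapt 1.9.3 and the build mm10. The labels and the series' text name different strand-keeping library kits, so the kit is uncertain. Site names begin with MACS, and the sources used here give no version of it. Each deposited list covers 1 genotype, per the labels. The deposited fold is the authors' linear ratio per site, the score is p as minus 10 log10, per the file headers, and the authors' false discovery rate is given in percent. Depth is unknown.

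Sites were paired when they overlapped by at least 1 bp on the same strand, with Python 3.11.15, pandas 2.3.3, numpy 2.4.6, scipy 1.17.1 and figures from matplotlib 3.10.9. The pairing was tested on simulated intervals against bedtools 2.31.1. Genes were taken by listed symbol and placed with RefSeq spans of GRCm38.p6, the assembly of mm10; all member sites had a match. A span was cut in 5 equal parts of 20%. One site per list (a Gna12 site at its 3′ edge) had its midpoint outside the span and was left out of positions. Coordinates are 1-based. Shares have exact (Clopper-Pearson) 95% intervals. The final point of the stem pattern was read as the end of its sentence.

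Members and gene lists were chosen with earlier results of these data known. Genes named are all members in a single list, those with at least 3 sites in a list, up to 4 per role by score, a set of cardiac members, and, of the pathway lists, genes in a single list and up to 4 in both by score (more where scores tied). Members outside this rule, genes named for having no site, and the sequences shown were added after their values were seen. One member counts in the totals and is not reported here by itself. With 1 list per genotype, no test was run.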

Additional observations from a re-analysis of the deposited data

How the results depend on the processing

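No paired analysis was possible because each genotype has 1 list and no result comes from a test. Under the other settings, 32 recomputed values stayed within the first value's 95% interval, or within 1.5 times its count, and 10 did not. With sites of a score of at least 100 only, 3 members were in the knockout list alone and 5 in the wild-type list alone, and of the 9 genes found in a single list over all sites, Akap10, Gna13 and Grk5 stayed in a single list; Grk4 and Pde1c joined the knockout list only, and Adra1d, Pde4a and Rgs16 the wild-type list only. Of the pathway genes, 10 were then in the knockout list only, against 4 over all sites, and 4 in the wild-type list only, against 8. With the final point of the stem pattern read as any character, 26 members were in both lists and 1 in the wild-type list only. With identical ends required, 59.2% of knockout and 54.2% of wild-type member sites had a counterpart. Over the strongest site of each gene, the median score was 599 in the knockout list and 775 in the wild-type list, and the median wild-type fold 14.0. Matched by RefSeq gene, 4 members were in the knockout list only. The score minimum, the other reading of the pattern and the strongest site per gene leave fewer sites or genes by construction, and identical ends are a stricter match. Beyond that the cause was not tested. A gene in a single list has no site in the other list at an unknown depth, and may still carry the mark.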
